A study of Mus musculus with 6 samples.

Results

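The nuclear-encoded subunits of oxidative phosphorylation were followed in mouse bone marrow stromal cells that had taken up apoptotic thymocytes. The members are the genes whose symbols name a subunit of complexes I to V of the respiratory chain, cytochrome c1 or cytochrome c. They were picked by symbol alone, with assembly factors of complex I left out, and 91 of the 53735 features in the count table matched. The rule also took 5 pseudogene names and 2 genes, Atp5s and Atp5sl, that carry an ATP synthase name without being accepted subunits. The other 84 members are counted here as accepted subunits, 36 of complex I, 4 of complex II, 9 of complex III, 1 of cytochrome c, 19 of complex IV and 15 of complex V. The count for complex IV takes in Cox7a2l, a supercomplex factor related to subunit 7a, and the cytochrome c member is the soluble carrier Cycs.

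Oxidative phosphorylation takes place in the inner mitochondrial membrane. Complex I accepts electrons from NADH and complex II from succinate, both pass them through ubiquinone to complex III, cytochrome c carries them on to complex IV, and complex IV hands them to oxygen. The proton gradient that complexes I, III and IV build drives the ATP synthase, also called complex V. Most subunits are encoded in the nucleus and imported, while a small set of hydrophobic ones is encoded in mitochondrial DNA. Several subunits of complex IV exist as a ubiquitous form and as forms best known from muscle, testis, lung or low oxygen. Marrow stromal cells support blood formation and give rise to osteoblasts and adipocytes, and they can clear dying cells by engulfing them.

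The study addressed what phagocytosis does to mesenchymal cells of the osteoblast lineage. All 6 libraries came from wild-type mice and from marrow cells sorted as negative for haematopoietic lineage markers, CD45 and CD31 and positive for CD51, which were then grown at 2% oxygen and used at passage 2 or 3. The fed group (3 libraries) had 5000000 apoptotic thymocytes carrying a fluorescent dye added per well for 24 h at 5% oxygen, and dye-positive cells were sorted. The control group (3 libraries) received no thymocytes and was sorted as well. The oxygen level and medium of the control wells over the final 24 h are not given in the labels, so feeding and oxygen cannot be told apart in this comparison. Cells outside the dye-positive gate were not analysed here, and the mouse strain, age and number of donor animals are not given.

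Library totals ran from 19069074 to 22410047 counts, and libraries are called control 1 to 3 and fed 1 to 3. Levels are given as CPM, which is the count relative to the scaled library total, times 1000000. Markers of marrow stroma had a summed level of 36530 to 38000 CPM in control and 31990 to 33920 CPM in fed libraries, and 7 of the 11 tested markers were lower and 1 was higher in fed cells. Most of the sum came from Col1a1, with means of 19408 CPM in control and 17818 CPM in fed libraries, and Col1a2, with 12550 and 11002 CPM. Lepr was the lowest of these markers, with means of 4.17 and 3.83 CPM. The 15 thymocyte markers summed to 405 to 431 CPM in control and 320 to 325 CPM in fed libraries. Nearly all of that came from Thy1, which stromal cells also express. Cd3g, Rag2 and Ptcra were at 0 in every library, and each of the other thymocyte markers stayed under 1 CPM. Among them Rag1, Ptprc, Cd8a, Cd8b1 and Dntt had fed values above all control values, and Themis had fed values below them, each on few reads. Rag1 was the highest of these in fed libraries, at 0 to 0.0945 CPM in control and 0.276 to 0.529 CPM in fed libraries. Lck, the only one besides Thy1 to be tested, was not called. Macrophage markers summed to 9.87 to 11.3 CPM in control and 14.4 to 16.3 CPM in fed libraries, with Fcgr1 at 0 and Lyz2 the marker called higher. Csf1r and Cd68 were tested and not called. Adgre1 and Tyrobp, not tested, were at 0 in every control library and had 2 to 5 reads in each fed library. Endothelial markers summed to 3.57 to 3.92 CPM in control and 3.13 to 4.01 CPM in fed libraries, with Cdh5, Emcn and Cldn5 at 0. In bulk libraries such as these, fewer cells of a type and less RNA per cell cannot be told apart.

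After 24 h of feeding most subunit mRNAs differed little between the groups, and the members that were called moved in both directions. Of the 91 members, 83 passed the filter on low counts and were tested. Cox7b2, Cox8b, Cox8c and 4 of the pseudogene names were at 0 in all 6 libraries, and Atp5l-ps1 held 1 count. At a Benjamini-Hochberg adjusted p under 0.05 in edgeR's quasi-likelihood test, 11 members were higher in fed cells, which is 13.3% of those tested, against 20.5% of all 13092 genes tested. Another 14 members, or 16.9%, were lower, against 19.0% of all genes. In both directions together 25 members, or 30.1%, were called, against 39.5% of all genes. The share of members called was thus below that of all genes in each direction, which is a description and not a test of the set.

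The size of the changes was small. The median log2 fold change (fed minus control) of the tested members was 0.005, beside -0.007 over all genes tested, and 91.6% of the members lay within 0.25 of 0 on the log2 scale, beside 67.8% of all genes. Of the 25 called members, 19 had changed by less than 0.25. Only Cox4i2, Cox6a2 and Cox7a1 were called with a change of 1.5-fold or more, which is 3.61% of the tested members beside 5.30% of all genes. The 3 control and 3 fed values did not overlap for 25 members, or 30.1%, beside 49.1% of all genes. Among the called members 23 had groups that did not overlap, the exceptions being Ndufa6 and Ndufs7.

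The number of calls depended on single libraries. The count of higher members was 5 without control 1, 7 without fed 2 and 6 without fed 3. The count of lower members was 7 without control 2, 9 without fed 1 and 9 without fed 2. With a library left out, the share of all genes called in either direction fell too, from 39.5% to between 31.2% and 38.5%. For the members it went from 30.1% to between 19.3% and 28.9%. Scaled by library totals alone, which moved the median of all genes by 0.03 on the log2 scale, 13 members were called higher and 8 lower in place of 11 and 14. Over 14 alternatives (other scalings, filters and tests, and each library left out in turn), 10 of the called members kept their call and direction in every one. These were Cycs, Cyc1, Sdhb and Atp5g1 among the higher and Cox6a2, Cox7a1, Cox4i2, Ndufv3, Cox7a2l and Cox6c among the lower.

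**Figure D1:**
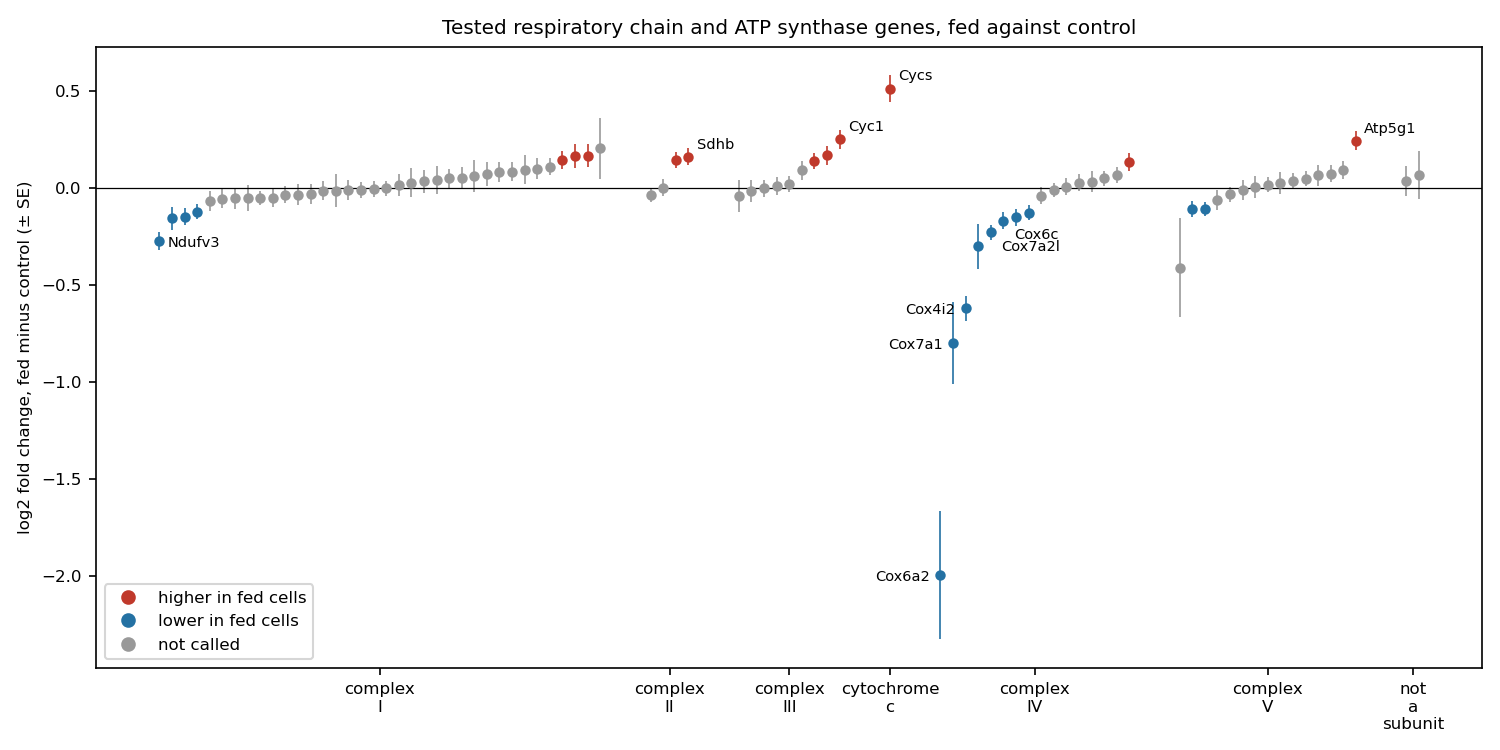
Log2 fold change (fed minus control, y axis) with its standard error for each of the 83 tested members, ordered within its complex along the x axis and coloured by call at an adjusted p under 0.05. Most points lie close to 0, Cycs stands highest at 0.51, and the lowest points, Cox6a2, Cox7a1 and Cox4i2, belong to complex IV.

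Complex I, which oxidises NADH, showed few calls and no common direction. All 36 of its members were tested, and 3 were higher and 4 were lower. That is 19.4% called, beside 39.5% of all genes, and the median log2 fold change was -0.005. Its 7 core subunits, which carry the flavin, the iron-sulphur clusters and the ubiquinone site, included 2 that were higher and none that was lower. Its 29 accessory subunits, which surround and stabilise the core, included 1 that was higher and 4 that were lower. The shares called in either direction were 28.6% of the core and 17.2% of the accessory subunits, both below the 39.5% of all genes. As both called core subunits were higher, their 28.6% also stands beside the 20.5% of all genes called higher, and is above it. Without control 1, fed 2 or fed 3 no complex I member was called higher, and without control 3 the number was 5. The count of lower members was 2 without control 2, 2 without control 3 and 1 without fed 2.

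Ndufv3, an accessory subunit at the NADH-oxidising tip (chr17:31520115-31531331, plus strand, GRCm38), fell furthest in complex I. Its level was 65.7, 67.5 and 64.0 CPM in the control libraries and 51.0, 54.9 and 57.1 CPM in the fed libraries. Every fed value lay below every control value. The log2 fold change was -0.27 ± 0.05 (standard error, n = 3 and 3, edgeR adjusted p = 0.000101). Ndufv1, the neighbouring core flavoprotein that binds NADH, moved the other way. Its level was 85.3, 92.7 and 96.2 CPM in control and 96.3, 103 and 102 CPM in fed libraries, so that the highest control value nearly met the lowest fed value, and the log2 fold change was 0.14 ± 0.05 (edgeR adjusted p = 0.0185). That call was lost without control 1 (adjusted p = 0.124), fed 2 (0.0923) or fed 3 (0.0695).

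The other called members of complex I moved by less than 0.17 on the log2 scale. Ndufs7, a core iron-sulphur subunit at the ubiquinone site, was at 29.5, 30.9 and 33.7 CPM in control and 33.5, 37.1 and 34.5 CPM in fed libraries, with groups that overlapped (log2 fold change 0.16 ± 0.06, edgeR adjusted p = 0.0372). Ndufb3, an accessory subunit of the membrane arm, was at 24.1, 25.03 and 24.3 CPM in control and 26.4, 28.3 and 27.6 CPM in fed libraries (0.16 ± 0.06, edgeR adjusted p = 0.0301). On the lower side were 3 accessory subunits besides Ndufv3. Ndufa7 was at 78.7, 81.3 and 81.9 CPM in control and at 69.9, 71.0 and 77.0 CPM in fed libraries (-0.15 ± 0.04, edgeR adjusted p = 0.00987). Ndufa13, also studied as the cell death gene GRIM-19, was at 81.1, 84.6 and 85.5 CPM in control and at 76.6, 76.8 and 77.0 CPM in fed libraries (-0.12 ± 0.04, edgeR adjusted p = 0.0162). Its fed values lay close together and below all control values. Ndufa6 was at 30.03, 33.8 and 33.1 CPM in control and at 27.6, 29.0 and 30.1 CPM in fed libraries, with the lowest control and highest fed value crossing (-0.16 ± 0.06, edgeR adjusted p = 0.0418). Calls of these 5 genes were each lost in at least 2 of the 14 alternatives, most often for Ndufa6, which lost its call in 8.

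Complex II is the only respiratory complex with no subunit from mitochondrial DNA, and 2 of its 4 subunits were called, both higher. That is 50% called, beside 39.5% of all genes called and 20.5% called higher. Sdhb, the iron-sulphur subunit (chr4:140961203-140979193, plus strand), was at 58.5, 63.8 and 62.2 CPM in control and 67.7, 68.2 and 69.8 CPM in fed libraries. The fed libraries were close to each other and all above the control libraries (log2 fold change 0.16 ± 0.04, edgeR adjusted p = 0.00688). Sdhd, a membrane anchor (chr9:50596357-50603812, minus strand), was at 102, 101 and 106 CPM in control and 108, 118 and 114 CPM in fed libraries, again without overlap (0.14 ± 0.04, edgeR adjusted p = 0.00927). Its call was lost without control 2 (adjusted p = 0.0550) or fed 2 (0.0716). Neither Sdha nor Sdhc passed the test. Sdha, the flavoprotein that oxidises succinate, was at 230, 239 and 244 CPM in control and 232, 230 and 232 CPM in fed libraries, at the low end of the control range (-0.04 ± 0.04, edgeR adjusted p = 0.443). Sdhc, the other anchor, was at 106, 112 and 114 CPM in both groups, with a log2 fold change of 0.00 ± 0.04 (edgeR adjusted p = 0.994).

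Complex III and cytochrome c, the stretch of the chain between ubiquinone and complex IV, held the clearest higher calls. Of the 9 complex III members, 3, or 33.3%, were higher, beside 20.5% of all genes, and none was lower, beside 19.0%. Their median was 0.02 on the log2 scale, and the sole cytochrome c member was higher. Without control 1, Cyc1 was the only complex III member still called. Cycs, the soluble carrier that also triggers the apoptosome when released into the cytosol (chr6:50562563-50566538, minus strand), was at 20.8, 21.9 and 22.9 CPM in control libraries. In fed libraries it was at 33.7, 31.7 and 28.1 CPM. Each fed library was above each control library, and the log2 fold change was 0.51 ± 0.07 (edgeR adjusted p = 6.66e-06), the largest rise among the members. Cyc1, the cytochrome c1 that reduces cytochrome c (chr15:76343523-76346260, plus strand), was at 64.1, 72.4 and 74.2 CPM in control and 82.2, 86.0 and 81.8 CPM in fed libraries. Its groups did not overlap either, and the log2 fold change was 0.25 ± 0.05 (edgeR adjusted p = 0.000491).

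Among the remaining subunits of complex III the differences were smaller. Uqcrc1, a core protein that faces the matrix, was at 125, 141 and 141 CPM in control and 145, 151 and 161 CPM in fed libraries (log2 fold change 0.17 ± 0.05, edgeR adjusted p = 0.0138). Its call was lost without control 1 (adjusted p = 0.0679) or fed 3 (0.0790). Uqcrb, a small subunit near the ubiquinone site, was at 57.4, 59.8 and 59.1 CPM in control and 63.3, 65.3 and 65.3 CPM in fed libraries (0.14 ± 0.04, edgeR adjusted p = 0.0130). Both genes had fed values above all control values. The Rieske iron-sulphur protein Uqcrfs1 differed by 0.09 ± 0.05 and the hinge protein Uqcrh by -0.003 ± 0.04, and neither passed the test (edgeR adjusted p = 0.182 and 0.959).

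Complex IV, cytochrome c oxidase, held most of the lower calls. Of its 19 members 16 were tested, 8 were lower and 1 was higher, so that 56.2% were called, beside 39.5% of all genes called and 19.0% called lower. The median log2 fold change was -0.09. It came closer to 0 without fed 1, at -0.05, and with scaling by library totals alone, at -0.05. Without control 2, 5 members were called lower in place of 8. The 4 tested members that are isoforms best known from other tissues or conditions, Cox4i2, Cox6a2, Cox6b2 and Cox7a1, were all called lower, with a median of -0.71. The other 12 tested members comprised 4 that were lower, among them the supercomplex factor Cox7a2l, and 1 that was higher, with a median of -0.003.

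Cox4i2, the form of subunit 4 known from lung and from cells at low oxygen (chr2:152754173-152765037, plus strand), had the smallest p among the members. It was at 23.6, 25.4 and 26.2 CPM in control and at 16.6, 15.9 and 16.4 CPM in fed libraries. Both groups were tight and far apart (log2 fold change -0.62 ± 0.06, edgeR adjusted p = 2.22e-07). Its ubiquitous counterpart Cox4i1 was at 200, 205 and 205 CPM in control and 176, 187 and 195 CPM in fed libraries, also without overlap (-0.13 ± 0.04, edgeR adjusted p = 0.0141). The call for Cox4i1 was lost without control 2 (adjusted p = 0.0636), without fed 1 (0.0867) and with scaling by library totals alone (0.0707). Of the summed CPM per kilobase of transcript (kb) of the 2 genes, Cox4i2 held 11.4% ± 0.394 (SD, n = 3) in control and 8.39% ± 0.470 in fed libraries, and the fed shares all lay below the control shares.

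The muscle isoforms were close to the detection limit. Cox6a2, the heart and skeletal muscle form of subunit 6a (chr7:128205435-128206387, minus strand), had 30, 25 and 26 reads in the control libraries and 3, 9 and 9 in the fed libraries. In CPM this was 1.39, 1.18 and 1.37 against 0.149, 0.414 and 0.396, with no overlap, a log2 fold change of -2.00 ± 0.33 and an edgeR adjusted p of 6.91e-05. Cox7a1, the muscle form of subunit 7a (chr7:30184144-30186078, plus strand), had 61, 40 and 41 reads in control and 29, 27 and 29 reads in fed libraries, which is 2.83, 1.89 and 2.16 CPM against 1.44, 1.24 and 1.28 CPM. It fell by 0.80 on the log2 scale (standard error 0.21, edgeR adjusted p = 0.00448), with all fed values below all control values. The 10 markers of heart and skeletal muscle summed to 9.75 to 10.3 CPM in control and to 7.59 to 9.27 CPM in fed libraries, mostly from Actn3, which was called lower, while Myh6, Myh2 and Myh4 were at 0. The part of those markers in the fall of the muscle isoforms was not tested. The muscle form of subunit 8, Cox8b, was at 0 in all libraries, as were the testis forms Cox8c and Cox7b2.

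Cox6a1 and Cox7a2, the ubiquitous partners of Cox6a2 and Cox7a1, did not pass the test. Cox6a1 was at 145, 151 and 158 CPM in control and 147, 156 and 159 CPM in fed libraries (log2 fold change 0.03 ± 0.04, edgeR adjusted p = 0.656), and Cox6a2 made up 0.725% ± 0.0726 of the pair's summed CPM per kb in control and 0.172% ± 0.0757 in fed libraries. Cox7a2 was at 79.9, 78.1 and 74.6 CPM in control and 79.8, 83.6 and 79.9 CPM in fed libraries (0.06 ± 0.04, edgeR adjusted p = 0.236). Cox7a2l, a relative of subunit 7a that links complexes III and IV into supercomplexes (chr17:83501918-83517330, minus strand), did fall. Its level was 87.9, 91.0 and 87.0 CPM in control and 73.4, 75.5 and 77.8 CPM in fed libraries, with a wide gap between the groups (-0.23 ± 0.04, edgeR adjusted p = 0.000121). Within the trio of Cox7a1, Cox7a2 and Cox7a2l, the share of Cox7a2 in the summed CPM per kb was 57.1% ± 0.488 in control and 62.6% ± 0.894 in fed libraries. The testis form Cox6b2 was at 7.83, 7.60 and 8.90 CPM in control and 5.45, 7.04 and 7.14 CPM in fed libraries (-0.30 ± 0.12, edgeR adjusted p = 0.0436), and its call was lost in 9 of the 14 alternatives. Its partner Cox6b1 was at 132, 134 and 128 CPM against 128, 131 and 132 CPM (-0.01 ± 0.04, edgeR adjusted p = 0.844).

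**Figure D2:**
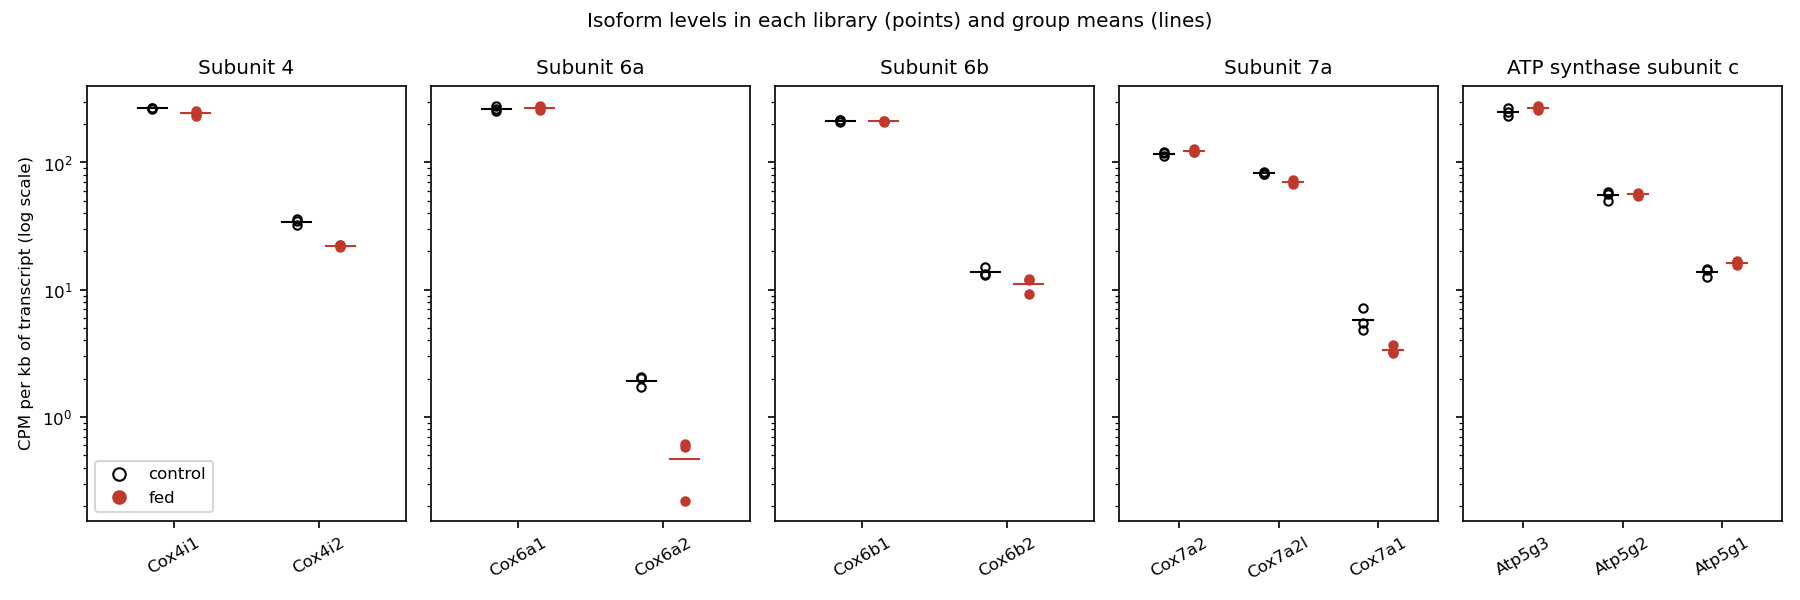
CPM per kb of transcript on a log axis for isoform pairs and trios of complex IV and of subunit c of ATP synthase, with a point for each of the 3 control and 3 fed libraries and a bar at the group mean. Cox4i2, Cox6a2, Cox6b2 and Cox7a1 lie below their ubiquitous partners in both groups and are lower in fed libraries, while Atp5g1 is higher.

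The remaining called members of complex IV are not counted as tissue isoforms. Cox6c was at 70.0, 67.0 and 67.1 CPM in control and 58.1, 62.9 and 60.4 CPM in fed libraries (log2 fold change -0.17 ± 0.04, edgeR adjusted p = 0.00421). Cox8a was at 112, 123 and 126 CPM in control and 105, 110 and 110 CPM in fed libraries (-0.15 ± 0.04, edgeR adjusted p = 0.00928), a call lost without control 2 (0.0530). Neither gene showed overlap between the groups. The single higher member was Cox5a, a subunit on the matrix side, at 75.1, 81.7 and 80.0 CPM in control and 84.5, 83.2 and 91.4 CPM in fed libraries (0.13 ± 0.05, edgeR adjusted p = 0.0278). Its call was lost without control 1 (0.140) or fed 3 (0.172). Ndufa4, first assigned to complex I and now counted to complex IV, was not called (0.05 ± 0.04, edgeR adjusted p = 0.361), nor was Cox7b (-0.04 ± 0.04, edgeR adjusted p = 0.464).

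**Figure D3:**
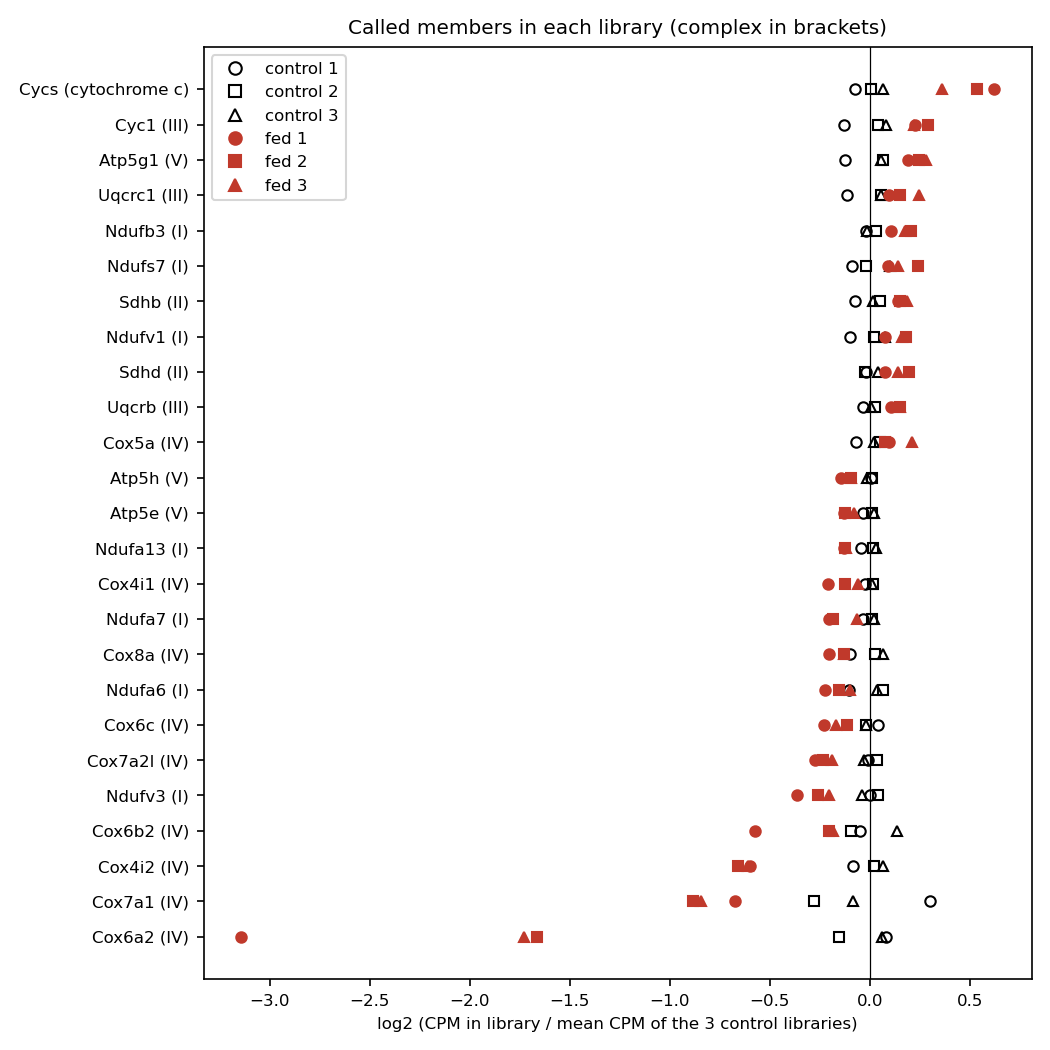
CPM in each of the 6 libraries for the 25 called members, as the log2 ratio to the mean of the 3 control libraries (x axis), with open symbols for control and filled symbols for fed libraries. Except for Ndufa6 and Ndufs7, the 3 fed points of a gene lie on one side of its 3 control points.

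Complex V, the ATP synthase, held the most abundant members and moved little. Of its 15 members, all tested, 1 was higher and 2 were lower. That is 20% called, beside 39.5% of all genes, and the median log2 fold change was 0.02. The count of lower members was 0 without control 2 or fed 1 and 1 without control 3 or fed 2, and the count of higher members was 2 without control 3 or fed 1. The catalytic beta subunit Atp5b was at 960, 1006 and 1033 CPM in control and 1001, 1047 and 1047 CPM in fed libraries (0.05 ± 0.04, edgeR adjusted p = 0.379). The alpha subunit Atp5a1 was at 676, 723 and 721 CPM against 699, 745 and 727 CPM (0.03 ± 0.04, edgeR adjusted p = 0.512). Both genes overlapped between the groups.

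The membrane ring of ATP synthase is built from subunit c, which is made from 3 genes that encode the same mature protein behind different import signals. Atp5g1 (chr11:96068852-96075670, minus strand) was at 59.8, 68.1 and 67.6 CPM in control and 74.3, 77.2 and 79.0 CPM in fed libraries, with no overlap (log2 fold change 0.24 ± 0.05, edgeR adjusted p = 0.000566). Atp5g3 was at 169, 182 and 193 CPM in control and 186, 193 and 199 CPM in fed libraries (0.09 ± 0.04, edgeR adjusted p = 0.117), and was called with the replicate block, with library totals or without control 3. Atp5g2 was at 36.7, 42.8 and 41.4 CPM against 39.7, 40.9 and 42.3 CPM (0.03 ± 0.06, edgeR adjusted p = 0.756). Of the 3 genes together, Atp5g1 held 4.32% ± 0.115 in control and 4.81% ± 0.0189 of the summed CPM per kb in fed libraries, and Atp5g3 held the bulk in both groups, 78.4% ± 0.836 and 78.7% ± 0.0329. These shares rest on the level of Atp5g2, which may be undercounted, since 87.4% of its windows of 50 bases also occur in other genes. They also rest on the transcript length used, which was 4715 bases for Atp5g1, 731 for Atp5g2 and 723 for Atp5g3. In CPM, which is not divided by length, Atp5g1 was above Atp5g2 in both groups. The lower members were Atp5e, the small epsilon subunit of the F1 stalk, at 75.9, 78.2 and 78.7 CPM in control and 70.9, 71.2 and 73.4 CPM in fed libraries (-0.11 ± 0.04, edgeR adjusted p = 0.0333), and Atp5h, the stator subunit d, at 119, 120 and 118 CPM against 108, 112 and 112 CPM (-0.11 ± 0.04, edgeR adjusted p = 0.0226). Neither gene overlapped between the groups, and their calls were lost in 7 and 5 of the 14 alternatives.

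Of the 58 tested members that were not called, 55 lay within 0.1 of 0 on the log2 scale. The exceptions were Atp5l at -0.41 ± 0.26, Ndufb4 at 0.20 ± 0.16 and Ndufa9 at 0.11 ± 0.04 (edgeR adjusted p = 0.217, 0.329 and 0.0548). Atp5l encodes subunit g of ATP synthase, yet it was listed at only 1.20, 1.13 and 1.05 CPM in control and 0.743, 0.782 and 1.01 CPM in fed libraries. In its transcript, 84.8% of the windows of 50 bases also occur in transcripts of 14 other genes, 12 of them pseudogenes. How the authors counted reads that match several genes is not given in the sources used here, so the level of Atp5l is uncertain. A related doubt holds in part for 30 of the 81 tested members that could be placed in the annotation. These share more than 10% of their windows with another gene, either a copy elsewhere or a gene that overlaps the same place. Among the called members these are Cycs (28.5%), Uqcrb (43.4%), Atp5g1 (11.6%), Cox5a (32.0%), Cox7a2l (19.8%), Cox6c (13.9%), Cox4i1 (14.7%), Ndufa13 (28.5%) and Atp5h (47.9%). For Cox4i1, Cox5a, Ndufa13, Uqcrb and Cox6a2 part of the transcript also lies opposite another gene, and the strand setting of the counting is not given. Cox4i1 shares windows only with Emc8, the gene opposite it. With the members that share more than 10% of their windows left out, an alternative chosen after seeing the data, 7 members were higher and 9 lower. This left out 30 of the 83 tested members and 9 of the 25 called members, so these counts are of fewer members. Cox6a2, which shares 3.33%, stayed in.

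Divided by transcript length, levels within a complex spread widely. The highest member of complex I was Ndufa7, at 153 ± 3.17 CPM per kb in control and 138 ± 7.26 in fed libraries, and the lowest was Ndufb2 at 2.59 ± 0.114 and 2.56 ± 0.185. That low place depends on the transcript of 4371 bases used for Ndufb2. In CPM it was above Ndufb4, with means of 11.3 against 4.61 in control and 11.2 against 5.27 in fed libraries. In complex II, Sdhd at 83.6 ± 2.17 and Sdha at 81.9 ± 2.32 CPM per kb in control differed by less than their spread, and in fed libraries Sdhd at 92.1 ± 3.90 was above Sdha at 79.8 ± 0.429. Sdhc was the lowest of the 4, at 34.9 CPM per kb in both groups. In complex III the highest was Uqcrh at 201 ± 8.22 and 200.2 ± 9.92 CPM per kb. In complex IV, Cox4i1 and Cox6a1 were level in control, at 266 ± 4.11 and 265 ± 11.7 CPM per kb, and stood at 243 ± 12.5 and 269 ± 11.5 in fed libraries. In complex V, Atp5b led with 522 ± 19.2 and 539 ± 13.9 CPM per kb. Cycs was low on this scale, at 7.0003 ± 0.345 in control and 9.97 ± 0.910 CPM per kb in fed libraries, with a long transcript of 3123 bases. These lengths are of 1 annotated transcript per gene, and genes that share windows with copies may be undercounted.

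Summed over complexes, the changes largely cancelled. All members together held 7086, 7450 and 7483 CPM in control and 7172, 7505 and 7549 CPM in fed libraries, a mean difference of 0.934%. The sum of complex III differed most, by 5.14%, at 702, 755 and 741 CPM in control and 746, 780 and 785 CPM in fed libraries, with 1 control value above the lowest fed value. The sum of complex IV differed by -3.97%, at 1196, 1230 and 1227 CPM in control and 1132, 1176 and 1200 CPM in fed libraries, again with overlap. The sums of complexes I, II and V differed by -0.626%, 2.24% and 2.27%. No sum separated the groups completely, and control 1 and fed 1 had the lowest sum of their group in every complex.

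**Figure D4:**
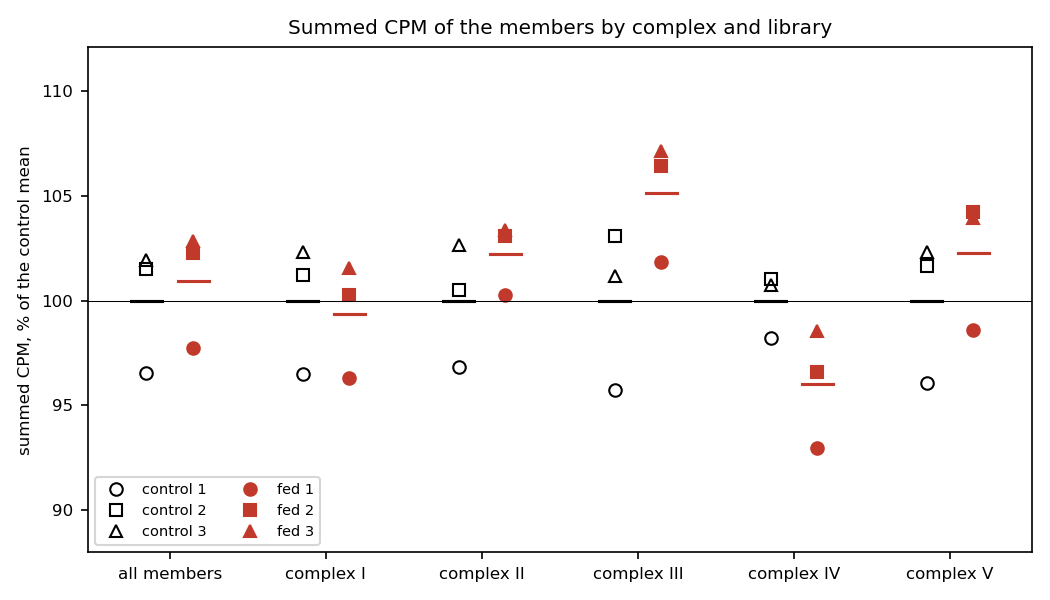
Summed CPM of all members and of each complex in each library, as a percentage of the control mean (y axis, not starting at 0), with a line at each group mean. The groups overlap in every sum, and complexes III and IV differ in opposite directions.

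Oxidative phosphorylation also needs subunits from mitochondrial DNA, factors that assemble the complexes and regulators that set their transcription. Of the 13 mRNAs encoded in mitochondrial DNA, 5 were listed at 0 in every library (mt-Nd4l, mt-Co2, mt-Co3, mt-Atp6 and mt-Atp8), and 7 were tested. mt-Nd5 was lower, at 1091, 950 and 1001 CPM in control and 902, 895 and 797 CPM in fed libraries (log2 fold change -0.23 ± 0.06, edgeR adjusted p = 0.00566). mt-Nd2 was higher by 0.18 ± 0.06 with groups that overlapped (edgeR adjusted p = 0.0376), and it lost its call with the replicate block (0.214) and without control 2 or 3 or fed 1 or 2. The summed level was 8566 ± 761 CPM in control and 8262 ± 617 CPM in fed libraries, a difference smaller than the spread. The preparation selects polyadenylated RNA, and the zeros of abundant mitochondrial mRNAs limit what this list can show.

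Assembly factors, which build the complexes without staying in them, had a share of higher calls near that of all genes and no lower calls. Of 45 listed, 44 were in the table and 43 were tested. In fed cells 10 were higher, which is 23.3% beside 20.5% of all genes, and none was lower, beside 19.0% of all genes. The median log2 fold change was 0.14 beside -0.007 over all genes. Fed values lay wholly above control values for 13 factors and wholly below for 3, Tmem126b, Uqcc3 and Surf1. Over all genes these shares were 25.1% and 24.0%. The count of higher factors was 5 without control 1 and 4 by DESeq2. Of all genes, 33.1% and 29.2% were called in either direction in these alternatives, in place of 39.5%. Ndufaf4, needed to build complex I, was at 7.46, 8.22 and 7.43 CPM in control and 12.4, 14.6 and 11.01 CPM in fed libraries, the largest rise of the list (0.72 ± 0.10, edgeR adjusted p = 1.52e-05). Coa3, an early factor of complex IV, was at 38.6, 36.4 and 37.1 CPM against 44.1, 45.1 and 45.0 CPM (0.26 ± 0.05, edgeR adjusted p = 0.000248). Both genes had fed values above all control values. Tmem70, which acts in the assembly of ATP synthase, rose by 0.20 ± 0.05, and Uqcc2, which acts on cytochrome b of complex III, rose by 0.19 ± 0.05 (edgeR adjusted p = 0.00514 and 0.00412). The other higher factors were Ecsit, Timmdc1, Uqcc1, Cox10, Coa6 and Coa7. Whether the assembly factors differ from the subunits as a list was not tested.

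Among 13 listed regulators of respiratory genes, 11 were tested, 3 were higher, which is 27.3% beside 20.5% of all genes, and none was lower. That share is near the background. Nrf1, the nuclear respiratory factor that binds many promoters of this group, was at 28.1, 29.1 and 30.4 CPM in control and 39.0, 37.9 and 36.3 CPM in fed libraries (log2 fold change 0.37 ± 0.05, edgeR adjusted p = 1.70e-05). The fed libraries were all well above the control libraries. Gabpb1, a partner of the ETS factor Gabpa, rose by 0.20 ± 0.06 and Myc by 0.17 ± 0.05 (edgeR adjusted p = 0.0130 and 0.0115), whereas Gabpa itself at 0.05 ± 0.04 and Tfam, which packages and transcribes mitochondrial DNA, at 0.05 ± 0.06 did not pass the test. DESeq2 called 1 of the 3. The coactivators Ppargc1a and Ppargc1b stayed under 0.5 CPM in every library and were not tested, and their relative Pprc1, at 59.5 to 65.9 CPM in control, differed by 0.06 ± 0.04 (edgeR adjusted p = 0.283).

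A short list of 5 genes known to change respiration at low oxygen, put together with earlier results of these data known and holding Cox4i2, had all 5 called lower, beside 19.0% of all genes. The count is therefore not independent evidence of a direction. Ndufa4l2, a relative of Ndufa4 induced by low oxygen, was at 320, 326 and 326 CPM in control and 218, 220 and 232 CPM in fed libraries (log2 fold change -0.54 ± 0.04, edgeR adjusted p = 8.85e-10). Pdk1, the kinase that shuts pyruvate out of mitochondrial oxidation, was at 262, 259 and 265 CPM against 189, 202 and 196 CPM (-0.42 ± 0.04, edgeR adjusted p = 2.18e-08). In both genes the groups were far apart. Lonp1, the matrix protease known to degrade Cox4i1 protein at low oxygen, and Higd1a, a small protein that binds complex IV, were each lower by 0.27 (-0.27 ± 0.04 for both, edgeR adjusted p = 1.14e-05 and 6.12e-05). The oxygen level of the cultures was recorded as 2% in expansion and 5% in feeding, and its part in these values cannot be told apart from feeding.

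**Figure D5:**
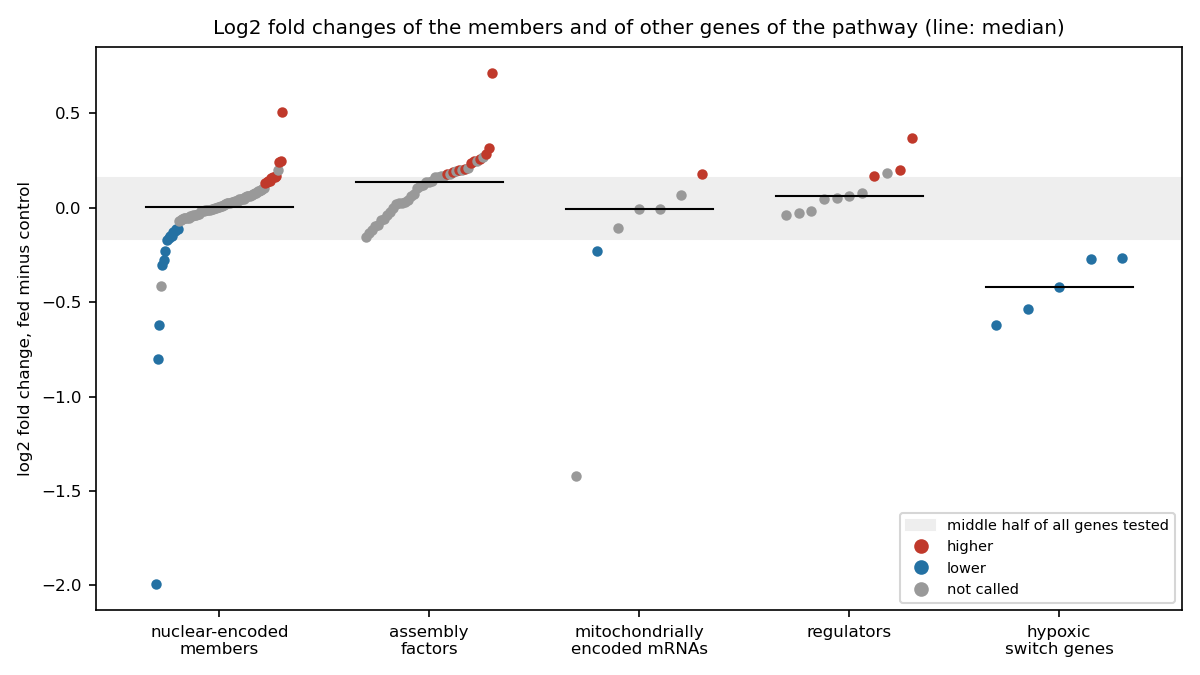
Log2 fold changes (fed minus control, y axis) of the tested members and of the tested genes in 4 further lists, coloured by call, with a line at each median and a grey band over the middle 50% of all genes tested. The medians are 0.005 for the members, 0.14 for assembly factors, -0.006 for mitochondrially encoded mRNAs, 0.06 for regulators and -0.42 for the hypoxic switch genes, which include Cox4i2.

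The promoters of the members were searched for the letters that factors of respiratory genes are known to bind. The table of RefSeq promoters (GRCm38.p6) held 66 of the 83 tested genes, and the 250 bases before the start were searched on both strands. The NRF1 letters GCGCANGCG, a form settled on after the Cycs promoter had been read, were in 15 of the 66, or 22.7%, beside 5.86% of all 27025 genes with a promoter in the table. The core CCGGAAG of ETS factors was in 12 members, or 18.2%, beside 7.83%. The YY1 letters AAGATGGC were in 1.52% beside 1.83%, and the HIF core, ACGTG or GCGTG, which can overlap the NRF1 letters, in 51.5% beside 41.5%. By call, the NRF1 letters were in 2 of 9 higher, 1 of 10 lower and 12 of 47 uncalled members, and the ETS core in 1, 2 and 9 of them. The HIF core was in 7 of the 9 higher, 5 of the 10 lower and 22 of the 47 uncalled members. Whether these shares differ by call was not tested. The comparison set holds every gene with a promoter, also genes not tested here, and was not matched for expression or base composition. A match describes letters and is not a binding site. The 90 bases before the start are given for Sdhd (chr9:50603850-50603939, minus strand), the higher member that holds both motifs, and for Cycs (chr6:50566570-50566659, minus strand), the member that rose furthest. Capitals mark the NRF1 and ETS letters.
Sdhd: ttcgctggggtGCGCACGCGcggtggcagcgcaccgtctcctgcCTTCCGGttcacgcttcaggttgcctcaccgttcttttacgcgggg
Cycs: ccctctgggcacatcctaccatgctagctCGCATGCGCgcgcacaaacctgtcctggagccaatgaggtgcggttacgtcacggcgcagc
In Sdhd the NRF1 letters begin 79 bases before the start and the ETS core, read on the other strand as CTTCCGG, begins 46 bases before it. In Cycs the NRF1 letters, also read on the other strand, begin 61 bases before the start, and CCGGAAG is not in its 250 bases.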

How the data were processed

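The deposited table holds raw counts per gene symbol for 53735 features. Trimmomatic 0.36, STAR 2.6.0c, featureCounts of Subread 1.6.1, MultiQC 1.5 and the build GRCm38 are named in the submitters' processing notes as what the authors used. Per the labels' protocols, 200 ng of RNA entered a stranded preparation that selects polyadenylated RNA. The annotation release, like the strand and multi-mapping settings of the counting, is not given in the sources used here.

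Counts were tested in R 4.3.3 with edgeR 4.0.16 (filterByExpr, TMM, quasi-likelihood F-test with robust estimation, group only) over 13092 genes, with Benjamini-Hochberg adjustment over all of them. Standard errors come from the F statistic, and CPM use TMM-scaled totals of the tested genes. Whether replicate libraries stem from different animals or wells is not in the labels, and p-values therefore reflect only the variation among these samples, which may be technical. Libraries of a group differed by more than sampling noise (chi-square per degree of freedom 2.65 to 6.14). The common coefficient of variation was 3.94%. Counts over 13006 genes simulated for this comparison gave back 42.9% of changes of 0.25, 78.0% of 0.5, 94.0% of 1 and 100% of 2 on the log2 scale, and 5 of 162 calls were false. Far fewer genes were changed in the simulation than were called in the data (39.5% of all genes). Its adjusted threshold was therefore stricter, and these shares do not give the sensitivity of the real comparison.

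Lengths, coordinates and shared windows of 50 bases come from GENCODE M21 on GRCm38, for the principal transcript of each gene. Named were every called member, the highest member per kb of each complex, isoform groups, the Sdh genes, and the uncalled members furthest from 0. The members and all lists were chosen with earlier results of these data known. Alternatives were RLE, upper quartile and library total scaling, other filters, DESeq2 1.42.0, limma-voom (limma 3.58.1), a fit that was not robust, a replicate block, a threshold of 0.01, accepted subunits only and each library left out.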

Additional observations from a re-analysis of the deposited data

How the results depend on the processing

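The number of members called moved with the test and the threshold. Higher members numbered 7 by DESeq2, 5 at an adjusted p under 0.01, and 7 without members that share more than 10% of their windows with other genes. Lower members numbered 8 with library totals, 8 by DESeq2, 8 at an adjusted p under 0.01, and 9 without those window-sharing members. By DESeq2, 18.1% of members and 29.2% of all genes were called in either direction, in place of 30.1% and 39.5%. The window-sharing members are 30 of the 83 tested and 9 of the 25 called, so the counts without them are of fewer members. With each library left out in turn, higher members ranged from 5 to 14 and lower members from 7 to 14. Higher assembly factors numbered 4 by DESeq2 and 4 at an adjusted p under 0.01, and 5 to 10 with a library left out. Higher regulators numbered 1 by DESeq2 and 1 at an adjusted p under 0.01. Higher mitochondrially encoded mRNAs numbered 0 at an adjusted p under 0.01 and 0 to 1 with a library left out, and lower ones 2 without robust estimation and 1 to 2 with a library left out. The complex IV median was -0.054 with library totals and ranged from -0.10 to -0.048 with a library left out. The cause of these moves was not tested.

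Replicate numbers were not treated as pairs, since the labels do not say that they pair libraries. Same-numbered libraries deviated together with r = 0.101, 0.022 and 0.128. The first and last of these were above every differently numbered pairing, while control replicate 2 correlated best with fed replicate 1 (0.0271). A replicate block raised the share of all genes called from 39.5% to 44.7%. Whether libraries share a replicate effect was not tested. With the replicate block 13 members were higher and 14 lower, Atp5g3 and Ndufa9 being added (adjusted p = 0.0193 and 0.0256), and 0 mitochondrially encoded mRNAs were higher.

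Some uncalled genes near 0 changed sign. With library totals Cox6b1 was at 0.021, Uqcrh at 0.028, Esrra at 0.0015 and Tfb2m at 0.015. Sdhc was at -0.012 with upper quartile scaling, -0.0016 with a filter of 1 CPM in 3 libraries and -0.00060 with the replicate block. Uqcrh was at 0.0058 without a filter and 0.0031 by DESeq2. With a library left out, Cox6a1 ranged from -0.0050 to 0.060, Cox6b1 from -0.026 to 0.0022, Atp5g2 from -0.041 to 0.072, Sdhc from -0.031 to 0.032, Uqcrh from -0.042 to 0.030, Esrra from -0.063 to 0.027, Yy1 from -0.065 to 0.00024 and Tfb2m from -0.098 to 0.050. Over single genes, 825 of the alternative values kept direction and side of the threshold, 87 lost the call, 8 gained it and 24 changed sign. At 3 libraries a group, the simulated test found 42.9% of changes of 0.25 over all genes. That simulation changed far fewer genes than were called in the data, which makes its adjusted threshold stricter than the real one. The median standard error of the 58 uncalled members was 0.050 on the log2 scale, and differences of about that size were not detectable.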
